A study of Mus musculus with 18 samples.

Results

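The genes of the mitochondrial ribosome were followed across mouse kidneys that were unobstructed or injured by unilateral ureteral obstruction (UUO, the tying of a ureter, which scars the kidney above it). Members were taken by name: of 31787 gene symbols in the count table, 79 began with Mrpl or Mrps followed by a digit, and 77 of these had at least 10 raw counts in at least 3 of the 18 libraries. The 77 were 74 genes and 3 pseudogene symbols (Mrpl23-ps1, Mrpl48-ps and Mrps36-ps1), which are counted apart throughout. The rule left out Mrpl53, with 0 to 5 raw counts per library, and Mrps36-ps2, with 1 to 13. Exons of other genes overlap Mrpl53 on both strands, so its low counts need not mean low expression. Just inside the rule lay Mrps36-ps1, with 0 to 17 raw counts. The gene with the lowest median raw count was Mrps34, with 111 to 250, and the lowest single count of a gene was 106, for Mrpl23. All 74 genes also passed the filter for the tests. Mrps23 and Mrpl57 were not analysed here.

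Each group held 3 kidneys. Healthy kidneys came from Cre-negative mice of the Twist line with floxed Twist alleles. The contralateral kidneys (opposite the tied ureter) and the wild-type (WT) UUO kidneys each came from 2 Cre-positive mice of that line without floxed alleles and 1 Cre-negative mouse with them. The Twist and Snail conditional knockout (cKO) UUO kidneys carried floxed alleles of the named gene and Cdh5-CreERT2, a tamoxifen-inducible Cre driven by an endothelial promoter. The Myc cKO UUO kidneys carried floxed Myc and GGT-Cre, which acts in tubular epithelium. Thus Cre was present in every knockout library but not in every WT library. Cre varied only within the contralateral and WT UUO groups, where the Cre-negative mouse was also the one with floxed alleles. A fit with Cre presence as a covariate therefore cannot separate Cre from those alleles, nor adjust for GGT-Cre. Mice were 12 weeks old, or 11 to 12 in the Myc group. The Twist line, with all healthy, contralateral and WT kidneys, was of mixed C57BL6, 129sv and Balb/c background, and the Snail and Myc lines were of mixed C57BL6 and Balb/c background. Wherever kidneys of different lines are compared, a deletion cannot be told apart from the line and its background. The labels give neither the days of obstruction nor which kidneys shared an animal, so a p-value here reflects only how these samples spread.

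Mitochondria hold their own ribosome, which makes only the proteins encoded by mitochondrial DNA, all of them parts of the respiratory chain or of ATP synthase. Its RNAs (mt-Rnr1 and mt-Rnr2) are transcribed inside the organelle, while its proteins are encoded in the nucleus, made in the cytosol and imported. Some of these proteins have counterparts in bacterial ribosomes and others occur only in mitochondria. The proximal tubule of the kidney is among the tissues richest in mitochondria, since it reabsorbs solutes by active transport. The 74 genes comprised 48 of the large subunit (30 with a bacterial counterpart and 18 specific to mitochondria, among them Mrps30 and Mrps18a despite their names) and 25 of the small subunit (16 and 9). The label goes against what is known of 1 member: Mrps36 is a component of the 2-oxoglutarate dehydrogenase complex of the citric acid cycle and not of the ribosome.

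Library totals lay between 52.6 and 91.3 M counts. The 2 mitochondrial ribosomal RNAs alone took 44.6% to 50.3% of the counts in unobstructed kidneys and 19.2% to 34.9% in obstructed ones, so that every level depends on the scaling. Levels are CPM, counts scaled to a common library total, with TMM factors (a trimmed mean of log ratios between libraries, over all genes). Twist1 lay at 0.307 to 0.596 CPM in Twist cKO UUO against 1.14 to 4.49 in WT UUO and was called lower (log2 fold change -2.59, edgeR adjusted p = 0.0172). Snai1 lay at 1.69 to 2.27 CPM in Snail cKO UUO against 2.40 to 3.44 in WT UUO (-0.61, adjusted p = 0.487). Lower values were not confined to the knockout of the gene itself. Against WT UUO, Snai1 stood at -0.58 in Twist cKO and -1.19 in Myc cKO. Twist1 stood at -0.73 in Snail cKO and -1.35 in Myc cKO, and Myc at -0.02 in Twist cKO and -0.12 in Snail cKO. None of these was called. Myc lay at 10.8 to 19.8 CPM in Myc cKO UUO against 21.8 to 23.8 in WT UUO (-0.45, adjusted p = 0.217); the deletions were meant for endothelium or tubule only, and whole kidney was sequenced.

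On the TMM scale nearly the whole family was lower in obstructed WT kidneys than in healthy ones, whereas on unscaled library totals the median member was slightly higher. Against healthy kidneys, 69 of 74 members were called lower, where 27.1% of all 21050 genes tested were, and 1 was called higher, where 29.2% were. A gene was called at an adjusted p under 0.05 in edgeR's quasi-likelihood test. The median member changed by -0.85 on the log2 scale, and the median of all genes by 0.05. Of the 69, 26 were at least 2-fold lower and 3 at least 3-fold lower. In 68 members the 3 WT UUO libraries all lay below the 3 healthy ones, as in 29.7% of all genes. Fewer cells of a type and less RNA per cell cannot be told apart in these whole-kidney libraries.

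**Figure D1:**
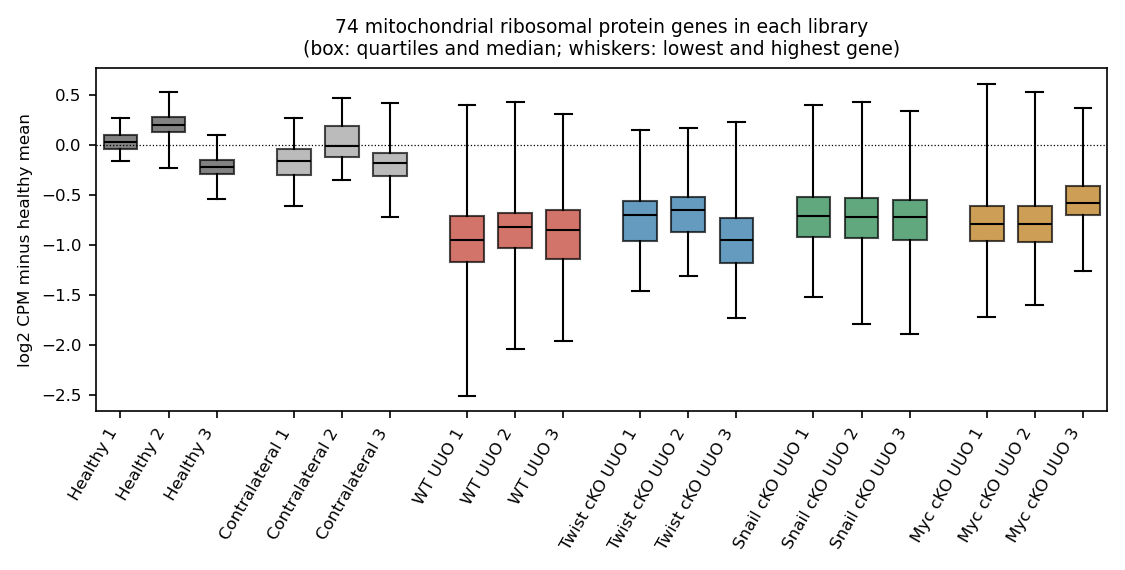
Levels of the 74 genes in each library, as log2 TMM-scaled CPM minus the gene's healthy mean; boxes show the quartiles and median and whiskers the lowest and highest gene. Library medians lie between -0.218 and 0.196 in unobstructed kidneys and between -0.953 and -0.578 in obstructed ones (on unscaled library totals the median of WT UUO against healthy was 0.24).

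The library medians, each relative to the healthy mean, were 0.025, 0.196 and -0.218 (healthy), -0.167, -0.015 and -0.181 (contralateral) and -0.947, -0.818 and -0.854 (WT UUO). The obstructed libraries thus lay apart from the unobstructed ones, and contralateral kidneys overlapped healthy ones. Replicate 2 was the highest of the 3 in both unobstructed groups, and these 2 libraries were the only males there by Ddx3y and Xist counts, with summed proximal tubule marker levels of 47493 and 40593 CPM against 22191 to 28547 in the others. In the obstructed groups too, male libraries held higher sums of these markers than the female ones of their group. With sex as a covariate the median against healthy was -0.85.

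The fall is relative to the other RNAs of the kidney. As a share of all counts the family took 0.127% ± 0.000965 (SD, n = 3) in healthy and 0.144% ± 0.00401 in WT UUO kidneys, which is higher, while mitochondrial RNA took less. Of counts from nuclear genes it took 0.264% ± 0.0150 and 0.181% ± 0.00626, which is lower. On unscaled library totals 33 members were called higher and 6 lower, the median member changed by 0.24 and the median of all genes by 1.12. Against that median, 72 of 74 members lay below it on library totals. The 6 members called lower even there were Mrpl12, Mrpl42, Mrpl46, Mrpl50, Mrps21 and Mrps36.

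Promoter sequences are shown for the 3 members with the largest falls and for Mrpl33 and Mrpl52, the 2 with the highest log2 changes in WT UUO against healthy kidneys, since these mark the ends of the family's range. Each is the 200 bases before the RefSeq start (GRCm38.p6), 5′ to 3′ on the gene's strand, with capitals marking matches to the motifs described with them. Mrpl12 lies at chr11:120484437-120484636 (+), Mrps36 at chr13:100744660-100744859 (-), Mrps21 at chr3:95871515-95871714 (-), Mrpl33 at chr5:31613751-31613950 (+) and Mrpl52 at chr14:54426709-54426908 (+).
Mrpl12: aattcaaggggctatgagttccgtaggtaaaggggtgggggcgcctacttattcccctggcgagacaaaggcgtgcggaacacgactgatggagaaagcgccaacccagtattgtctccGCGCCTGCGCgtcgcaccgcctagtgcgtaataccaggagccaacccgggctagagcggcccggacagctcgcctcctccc
Mrps36: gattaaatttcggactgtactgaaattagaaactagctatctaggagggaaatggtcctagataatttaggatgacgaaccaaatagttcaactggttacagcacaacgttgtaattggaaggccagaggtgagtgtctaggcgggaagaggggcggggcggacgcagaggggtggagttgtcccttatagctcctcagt
Mrps21: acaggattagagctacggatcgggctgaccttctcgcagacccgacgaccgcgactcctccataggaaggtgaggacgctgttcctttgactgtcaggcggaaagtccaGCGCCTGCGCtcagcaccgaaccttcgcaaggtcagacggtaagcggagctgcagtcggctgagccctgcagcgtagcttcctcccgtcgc
Mrpl33: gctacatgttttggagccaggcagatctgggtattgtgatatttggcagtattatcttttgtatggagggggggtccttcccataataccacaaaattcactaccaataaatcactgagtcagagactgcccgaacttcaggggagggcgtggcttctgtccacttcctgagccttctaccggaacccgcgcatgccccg
Mrpl52: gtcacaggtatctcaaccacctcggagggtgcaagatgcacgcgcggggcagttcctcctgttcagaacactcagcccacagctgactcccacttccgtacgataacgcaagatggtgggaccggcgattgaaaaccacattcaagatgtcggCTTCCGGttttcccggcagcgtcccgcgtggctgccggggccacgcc
GENCODE M21 places 24 of these bases of Mrpl12, 12 of Mrpl33 and 5 of Mrps21 already in an exon of the gene, and 164 bases of the Mrps21 window in an exon of the antisense RNA gene C920021L13Rik. The Mrpl33 window lies well inside the span that GENCODE gives the gene (chr5:31596935-31664384, + strand), downstream of the start annotated there. The Mrpl12 and Mrps21 windows each hold GCGCCTGCGC, a match to the NRF1 motif on the other strand, and the Mrpl52 window holds an ETS motif. In the windows searched for the shares below, Mrpl33 and Mrps21 were also counted with an ETS motif.

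Motifs were searched on both strands in 300-base windows (250 before to 50 after a start) for the 65 members in the RefSeq table and, the same way, for 26959 other genes. The motif of NRF1, a factor of mitochondrial gene expression (gene Nrf1), was found for 12 members (18.5%) and for 5.16% of other genes. The ETS motif bound by GABPA (CCGGAAG) was found for 22 (33.8%) against 9.87%, and the YY1 motif (ATGGCGG) for 12 (18.5%) against 4.66%. In 66 nuclear genes of the respiratory chain and ATP synthase the shares were 25.8% (NRF1), 24.2% (ETS) and 15.2% (YY1), and in 60 genes of the cytosolic ribosome 8.33%, 41.7% and 16.7%. The E-box bound by MYC (CACGTG) was found for 5 members (7.69%) against 8.09%, and the motif of the estrogen-related receptors (TCAAGGTCA) for 0 members against 0.467%. Members with the NRF1 motif had a median change in WT UUO against healthy of -0.83 and those without it -0.92. For the ETS motif the medians were -0.77 with and -0.93 without, so presence of either motif did not go with larger falls. These matches describe letters in a window and not binding.

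The largest fall was that of Mrpl12, which encodes the stalk protein of the large subunit and also binds the mitochondrial RNA polymerase (chr11:120484613-120489065, + strand, mm10, 5 exon blocks). It had 29.4, 38.7 and 27.8 CPM in the healthy kidneys; contralateral kidneys held 28.2, 37.0 and 27.9 and WT UUO kidneys 5.57, 7.68 and 8.14. Among the knockouts, the Twist cKO libraries held 12.7, 14.9 and 10.4, the Snail cKO libraries 12.1, 9.14 and 8.56 and the Myc cKO libraries 15.2, 10.4 and 17.1. All WT UUO libraries were below every other library, and all obstructed libraries were below all unobstructed ones. Against healthy kidneys Mrpl12 fell 4.48-fold (log2 -2.16, SE 0.22, edgeR adjusted p = 1.24e-06), and on unscaled library totals by 1.07 on the log2 scale. GENCODE places the long noncoding RNA Gm16755 on the other strand over an exon of Mrpl12, and the strand setting of the counting is not given in the sources used here.

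Mrps36, the dehydrogenase component (chr13:100735955-100744659, - strand, 6 exon blocks), was at 11.3, 15.4 and 10.8 CPM in healthy and 3.499, 3.92 and 3.78 in WT UUO kidneys (log2 -1.74, SE 0.19, adjusted p = 1.66e-06). Contralateral kidneys held 9.39, 12.5 and 9.66 CPM. Mrps21, a small-subunit protein with a bacterial counterpart (chr3:95862634-95871519, - strand, 5 exon blocks), was at 50.7, 58.5 and 31.6 CPM in healthy and 14.0, 15.5 and 13.3 in WT UUO (-1.72, SE 0.18, adjusted p = 1.36e-06). Healthy replicate 3 was the lowest of its group and still lay above every WT UUO library. Mrpl50, of the mitochondria-specific large-subunit proteins (chr4:49512596-49521093, - strand, 2 exon blocks), was at 74.7, 95.6 and 72.1 CPM against 22.9, 31.2 and 29.4 (-1.54, SE 0.15, adjusted p = 9.02e-07). Mrpl42, of the same class (chr10:95480805-95501940, - strand, 7 exon blocks), was at 65.0, 63.7 and 46.6 CPM against 19.0, 22.2 and 22.2 (-1.47, SE 0.16, adjusted p = 1.86e-06). In none of these 4 did a WT UUO library reach a healthy one, and each was called in all 6 fits that left out a healthy or WT UUO library.

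Against this, Mrpl33 was higher in obstructed kidneys (chr5:31596935-31664384, + strand, 13 exon blocks). It encodes a small large-subunit protein with a bacterial counterpart. It had 24.3, 26.9 and 23.6 CPM in the healthy kidneys; contralateral kidneys held 24.9, 24.3 and 22.2 and WT UUO kidneys 32.7, 33.5 and 30.8. The Twist cKO libraries held 27.5, 27.9 and 29.0, the Snail cKO libraries 32.8, 33.5 and 31.3 and the Myc cKO libraries 38.0, 35.8 and 32.1. Every obstructed library lay above every unobstructed one. Against healthy kidneys it rose 1.30-fold (log2 0.37, SE 0.08, adjusted p = 0.000823), and on library totals by 1.45. An exon of the processed transcript Gm43809 overlaps it on the same strand, so reads of the pair may be split.

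Mrpl52, of the mitochondria-specific large-subunit proteins (chr14:54426909-54429756, + strand, 3 exon blocks), had 14.1, 14.0 and 13.5 CPM in the healthy kidneys; contralateral kidneys held 12.8, 14.3 and 12.6 and WT UUO kidneys 16.5, 16.8 and 14.5. The WT UUO libraries lay above the healthy and the contralateral ones. It was not called against healthy (log2 0.20, adjusted p = 0.108) and was called higher against contralateral kidneys (0.27, SE 0.10, adjusted p = 0.0387), a call kept in 2 of 6 fits without a library and lost when only those groups were fitted. Mrpl33 and Mrpl52 are the 2 members above the median of all genes on the TMM scale and on library totals with or without mitochondrially encoded genes.

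**Figure D2:**
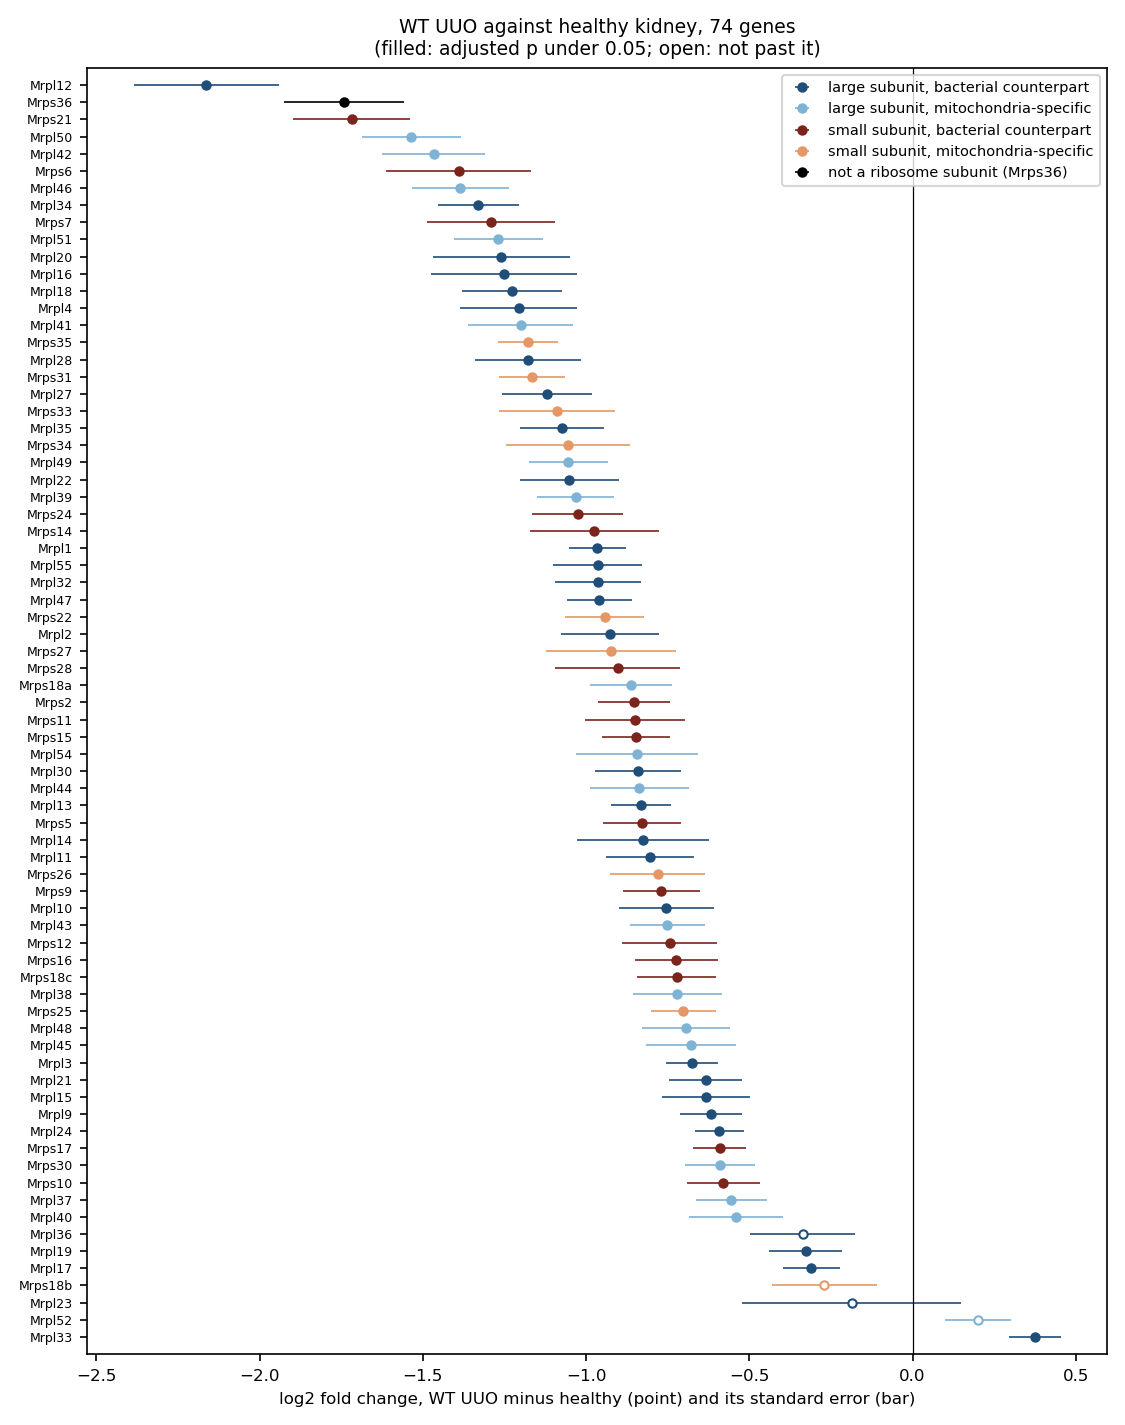
Log2 fold change of each of the 74 genes in WT UUO against healthy kidneys on the TMM scale, with standard errors as bars and colours for the subunit and class. Values run from -2.16 (Mrpl12) to 0.37 (Mrpl33), and 4 genes are open points (on unscaled library totals 33 genes were called higher and 6 lower).

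By role, 27 of 30 large-subunit members with a bacterial counterpart were called lower (median -0.88), 17 of 18 mitochondria-specific large-subunit members (-0.84), 16 of 16 small-subunit members with a bacterial counterpart (-0.85) and 8 of 9 mitochondria-specific small-subunit members (-0.94). Single members ranged from -2.16 to 0.37, from -1.54 to 0.20, from -1.72 to -0.58 and from -1.18 to -0.27 in these 4 classes, a wider spread than that between the class medians. Counts of the small subunit per count of the large one were 0.430 ± 0.0173 in healthy and 0.408 ± 0.00471 in WT UUO kidneys (SD, n = 3), with ranges of 0.412 to 0.447 and 0.404 to 0.413 that overlap. The 4 members not called were Mrpl36 (-0.34, adjusted p = 0.0847), Mrps18b (-0.27, adjusted p = 0.167), Mrpl23 (-0.19, adjusted p = 0.665) and Mrpl52. Mrpl19 was called (-0.33, adjusted p = 0.0214) but in only 2 of the 6 fits without a library.

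Mrps12, Mrps22, Mrpl44 and Mrps30 were called lower on the TMM scale, though Mrps12, Mrps30, Mrps18a, Mrps18b, Mrps18c, Mrps22 and Mrpl44 all turned positive on unscaled library totals. Mrps12, of the decoding centre, was at 14.1, 16.7 and 14.9 CPM in healthy and 7.72, 10.2 and 9.34 in WT UUO (log2 -0.74, SE 0.14). Mrps22, whose human counterpart is a mitochondrial disease gene, was at 22.0, 27.0 and 19.7 against 11.4, 12.1 and 12.3 (-0.94, SE 0.12). Mrpl44, also a disease gene in humans, was at 18.5, 23.5 and 17.0 against 9.66, 11.7 and 11.7 (-0.84, SE 0.15). In each of the 3 the healthy and WT UUO libraries did not overlap. Mrps30, which sits in the large subunit, was at 17.0, 20.4 and 16.3 against 11.3, 11.9 and 12.5 (-0.59, SE 0.11).

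The 3 paralogs of bacterial protein S18 held 30.7 (Mrps18a), 27.8 (Mrps18c) and 7.40 (Mrps18b) CPM per kb of transcript in healthy kidneys. Mrps18a, in the large subunit, was at 25.7, 31.8 and 24.03 CPM in healthy and 13.1, 15.8 and 15.9 in WT UUO kidneys (log2 -0.86, SE 0.13, adjusted p = 3.33e-05). Mrps18c was at 17.98, 20.5 and 14.8 against 10.7, 10.4 and 11.2 (-0.72, SE 0.12, adjusted p = 0.000122). Mrps18b was at 7.71, 9.40 and 6.84 against 6.80, 7.31 and 5.73 (-0.27, SE 0.16), and its libraries overlapped. Whether the change of Mrps18b differed from those of its paralogs was not tested.

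Per length of the transcript, the levels of the family in healthy kidneys spanned more than an order of magnitude. The highest were Mrps21 with 96.2 CPM per kb (SD 28.3, n = 3), Mrpl42 with 87.7, Mrpl20 with 53.2, Mrpl33 with 52.1 and Mrpl54 with 45.9. The lowest were Mrpl17 with 3.27 (SD 0.355), Mrpl19 with 3.29, Mrps34 with 3.93, Mrps25 with 4.57 and Mrpl47 with 5.01. Exons of Nme3 on the same strand and of Mapk8ip3 on the other overlap Mrps34. Mrpl19, Mrps25 and Mrpl47 have such overlaps on the other strand only. Whether reads were lost to these overlaps was not tested. Lengths are those of the longest transcript that GENCODE marks as principal, or of the merged exons where it marks none, and run to 7300 bases for Mrpl17, 6073 for Mrps25 and 5000 for Mrpl19. Counts are per gene, so a gene with exons outside that transcript may rank too high. Mrpl33, with 13 exon blocks, was scaled by 478 bases. In healthy and WT UUO kidneys Mrpl20 was at 37.9, 56.1 and 28.0 against 16.1, 17.1 and 17.7 CPM, and Mrpl54 at 28.8, 35.9 and 18.4 against 15.5, 16.0 and 14.7. Mrpl17 was at 24.7, 26.0 and 21.0 against 20.3, 19.1 and 18.3, and Mrpl19 at 17.2, 18.9 and 13.3 against 13.3, 12.8 and 13.2. Mrps34 was at 3.56, 4.20 and 3.05 against 1.77, 1.66 and 1.76, Mrps25 at 32.9, 25.8 and 24.5 against 16.2, 17.1 and 17.8, and Mrpl47 at 17.3, 18.2 and 15.0 against 8.00, 9.66 and 8.32. Across the 74 members the log2 change had a Spearman rho of 0.19 with transcript length and of -0.33 with the healthy CPM level, as a description over genes that share libraries.

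Mrpl23 is uncertain, because its level and that of Mrpl23-ps1, a processed pseudogene on chromosome 2, moved against each other from library to library. Mrpl23 ranged from 1.55 to 6.15 CPM and Mrpl23-ps1 from 0.0487 to 4.85, but their sum only from 4.23 to 6.44, a 1.52-fold range against the 3.97-fold range of Mrpl23. In Twist cKO UUO replicate 3 the gene had 1.55 CPM and the pseudogene 4.85, and in Snail cKO UUO replicate 1 they had 2.28 and 4.17. WT UUO replicate 2 (3.72 and 1.86), Twist cKO UUO replicate 1 (3.65 and 1.55) and Myc cKO UUO replicates 2 (3.47 and 1.52) and 3 (4.27 and 1.64) also held the pseudogene above 1 CPM. No library of the unobstructed kidneys did. Exons of 43 members overlap no other annotated gene, and of these 41 were called lower (median -0.93); Mrpl23 is among the 43.

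No member differed detectably between contralateral and healthy kidneys by edgeR. Of 74 members 0 were called by edgeR, where 2.26% of all genes were called in either direction, and 13 had an unadjusted p under 0.05. DESeq2 called 2 lower, Mrpl1 and Mrpl13, and limma voom called 0. The median member changed by -0.14 and the median gene by -0.01. Mrpl1, a large-subunit protein, held 35.0, 35.6 and 32.3 CPM in healthy and 28.9, 27.6 and 26.7 in contralateral kidneys, which do not overlap (log2 -0.31, adjusted p = 0.0797).

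Against contralateral kidneys, WT UUO kidneys showed 68 members called lower, where 26% of all genes were, and 2 higher, where 27.5% were (median -0.76 on the TMM scale, 0.29 on unscaled library totals). The largest falls were those of Mrpl12 (log2 -2.12, SE 0.22), Mrps36 (-1.50, SE 0.18), Mrpl34 (-1.42, SE 0.12), Mrpl4 (-1.38, SE 0.18) and Mrpl42 (-1.33, SE 0.16). For Mrpl34 the contralateral libraries held 19.3, 23.2 and 20.8 CPM and the WT UUO libraries 7.19, 8.07 and 8.42. Mrpl4 held 35.9, 43.7 and 36.2 against 12.9, 17.0 and 14.7. Neither overlapped between the groups. This comparison and that with healthy kidneys share the WT UUO libraries.

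Other parts of the mitochondrial translation system were also lower in WT UUO than in healthy kidneys on the TMM scale, and like the family their medians turned positive on unscaled library totals. Those medians were 0.27 for subunits with other names, 0.08 for translation factors, 0.52 for synthetases and 0.51 for assembly factors. All 6 ribosome subunits with other names were called lower (median -0.83), among them Dap3 (log2 -0.79), Ptcd3 (-0.87) and the large-subunit peptidyl-tRNA hydrolase listed under its older symbol Ict1 (-0.92). Of the translation factors 15 of 15 were called lower (median -0.99), among them Tufm, the elongation factor that brings in tRNA (-1.03), Gfm2 (-1.03) and Taco1 (-1.27). Of the tRNA synthetases and amidotransferase subunits 16 of 19 were called lower (median -0.55), with Hars2 (-0.55, SE 0.07) and Nars2 (-0.79) at the smallest p. Of ribosome assembly factors 17 of 24 were called lower and 0 higher (median -0.57), with Gtpbp10 (-1.12) and Rpusd3 (-1.49) at the smallest p.

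The RNAs that the mitochondrial ribosome is built on and reads were lower on every scaling that kept them. All 13 mitochondrially encoded mRNAs were called lower (median -3.70), for example mt-Nd2 (log2 -3.70, SE 0.26) and mt-Nd4 (-3.51, SE 0.26) of complex I. The ribosomal RNAs were lower as well, mt-Rnr1 by 2.99 and mt-Rnr2 by 2.32 (log2 -2.99 and -2.32, adjusted p = 8.2e-08 and 2.16e-06). Of the nuclear genes for the respiratory chain and ATP synthase (OXPHOS), 79 of 83 were called lower and 1 higher (median -1.76, and -0.66 on library totals), such as Ndufb5 (-1.88) and Uqcrc2 (-2.03). Of the genes for proteins of the cytosolic ribosome, 29 of 78 were called higher, where 29.2% of all genes were, and 3 lower, where 27.1% were. Their median was 0.23, and 1.31 on library totals, each a little above the median of all genes given above. Among them were Rpl12 (1.02, SE 0.11) and Rpl10a (0.59).

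Ratios of raw counts within a library show the same order without any scaling. Per count of the family, the 3 healthy libraries held 384, 399 and 350 counts of mitochondrial rRNA; contralateral kidneys held 405, 370 and 428 and WT UUO kidneys 138, 132 and 139. Of the obstructed knockouts, Twist cKO held 181, 222 and 182, Snail cKO 174, 156 and 177 and Myc cKO 174, 247 and 259. Every knockout library lay above every WT UUO library and below every unobstructed one. Mitochondrially encoded mRNA counts per family count were 29.0 to 32.0 in healthy, 6.51 to 7.72 in WT UUO, 9.997 to 12.5 for Twist cKO, 8.05 to 10.02 for Snail cKO and 11.1 to 18.6 for Myc cKO. Nuclear OXPHOS counts per family count were 6.98 to 7.79 in healthy and 3.69 to 4.07 in WT UUO. Cytosolic ribosomal protein counts per family count were 4.61 to 5.38 in healthy, 10.3 to 13.0 in WT UUO and 7.88 to 10.2 in the knockouts. For each of the 4 ratios the healthy and WT UUO libraries did not overlap.

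**Figure D3:**
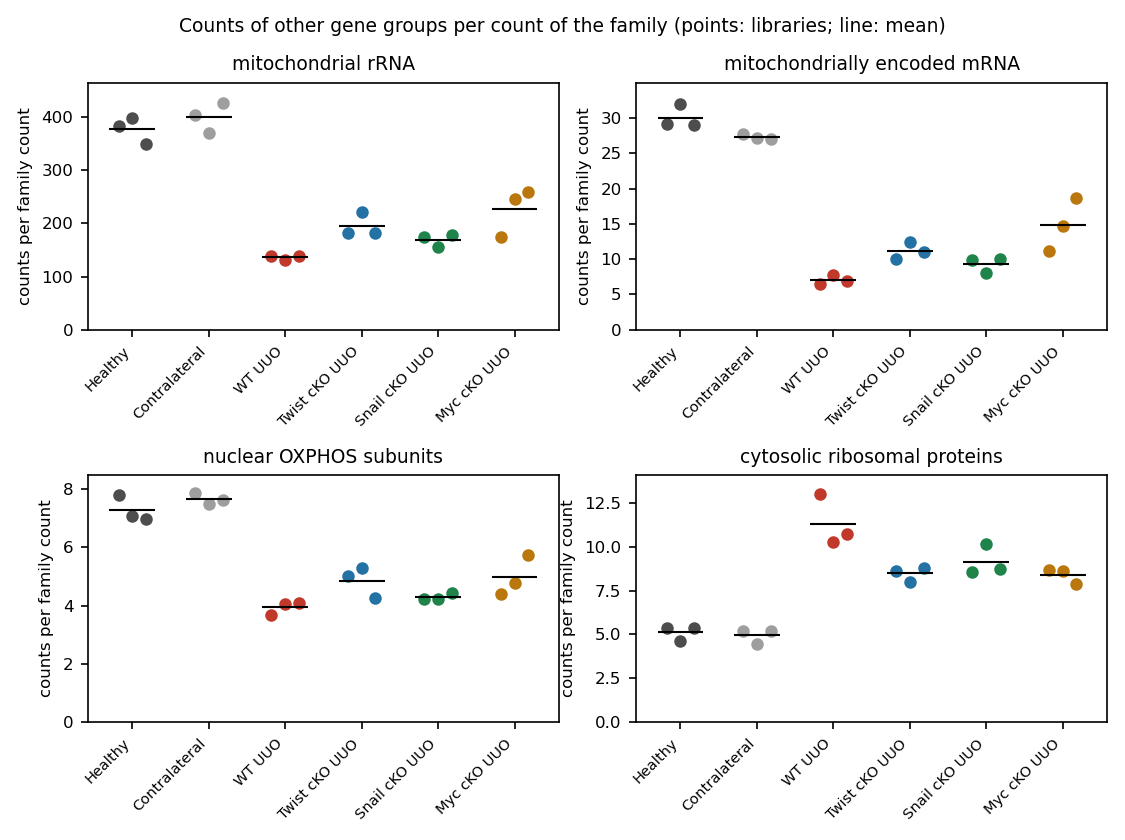
Raw counts of 4 gene groups divided by the raw counts of the 74 genes of the family, per library (points) with group means (lines); the ratios need no scaling between libraries. For mitochondrial rRNA the WT UUO libraries sit at 132 to 139, the knockouts at 156 to 259 and the unobstructed kidneys at 350 to 428.

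Genes known to transcribe mitochondrial DNA or to regulate mitochondrial biogenesis were measured beside the family, on the TMM scale. In WT UUO against healthy kidneys, 7 of 9 genes of mitochondrial DNA transcription and copying were called lower, among them the helicase gene Peo1 (log2 -1.10, SE 0.09), the elongation factor gene Tefm (-1.36, SE 0.14), the transcription factor gene Tfam (-1.03) and the polymerase gene Polrmt (-0.59). Of 12 regulators, 6 were called lower and 3 higher. Lower were the coactivators Ppargc1a (-2.15, SE 0.27) and Ppargc1b (-1.38), the receptors Esrra (-1.73, SE 0.14), Esrrb (-2.79) and Esrrg (-1.27), and Gabpa (-0.53). Higher were Myc (2.34, SE 0.25), Pprc1 (1.26) and Gabpb1 (0.64). Nrf1 was not called (0.22, adjusted p = 0.0581). These counts depended on the scaling. On unscaled library totals 4 of the 9 genes were called higher and 0 lower (median 0.30, against -0.76 on the TMM scale), and 7 of the 12 regulators were called higher and 3 lower (0.81 against -0.27). Ppargc1a (-1.08), Esrra (-0.66) and Esrrb (-1.72) were called lower there too. Ppargc1b (-0.31, adjusted p = 0.102), Esrrg (-0.20, 0.225), Tefm (-0.26, 0.0717) and Peo1 (-0.03, 0.849) were then not called, and Tfam (0.06), Polrmt (0.46) and Gabpa (0.54) turned positive.

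On the TMM scale, markers of the proximal tubule were lower in WT UUO kidneys, as was the family. All 15 were called lower there (median -4.05 against healthy). On unscaled library totals 14 of the 15 were still called lower (median -2.94), while 33 family members were called higher and 6 lower. Summed over the 15 markers, healthy libraries held 23422 to 47493 CPM, contralateral libraries 22191 to 40593 and WT UUO libraries 1028 to 3647. The Twist cKO libraries held 3682 to 8466, the Snail cKO libraries 2651 to 6576 and the Myc cKO libraries 4551 to 7836, and none of the 15 markers was at 0 in any library. In every group male libraries held higher sums than female ones, and the mix of sexes differed between groups. How far sex shapes these sums was not tested. All 9 markers of fibroblasts and myofibroblasts were called higher, with sums of 302 to 426 CPM in healthy and 3901 to 7625 in WT UUO kidneys, and the same held for all 7 tested markers of macrophages, with 69.2 to 98.6 and 501 to 771 CPM. The part of these shifts in the family's fall was not tested.

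In the knockouts the median member differed less from WT UUO than from contralateral kidneys. On the TMM scale the median member was higher than in WT UUO by 0.11 (Twist cKO), 0.14 (Snail cKO) and 0.17 (Myc cKO), while on unscaled library totals the medians were -0.052, 0.034 and -0.090. The median of all genes moved by at most 0.01 in each on the TMM scale. These 3 comparisons share the WT UUO libraries. The knockout libraries all lay above the WT UUO ones in 8 members for Twist cKO (15.7% of all genes), 29 for Snail cKO (12.8%) and 32 for Myc cKO (15.3%). Against contralateral kidneys, 67 members were called lower in Twist cKO (21.4% of all genes were), 65 in Snail cKO (22.8%) and 61 in Myc cKO (22.5%), with medians of -0.69, -0.61 and -0.57 (0.19, 0.34 and 0.22 on unscaled library totals). The member called higher in each of these was Mrpl33, by 0.24, 0.45 and 0.57, where 21.5%, 23.7% and 22% of all genes were called higher. Mrpl28, among the largest falls in Twist cKO and Myc cKO, was lower by 1.17 and 1.21 (log2 -1.17 and -1.21).

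In Twist cKO against WT UUO kidneys 1 member was called higher, Mrpl12 (log2 0.83, SE 0.22, adjusted p = 0.0406), where 2.97% of all genes were called higher, and 0 lower, where 2.31% were. The Twist cKO libraries at 10.4 to 14.9 CPM lay above the WT UUO ones at 5.57 to 8.14 and below the contralateral ones at 27.9 to 37.0. The call was lost without WT UUO replicate 1 (adjusted p = 0.178) or 2 (0.0763), without any of the 3 Twist cKO libraries (0.0829, 0.152 and 0.052), with Cre presence as a covariate (0.0577), on unscaled library totals (0.0606) and with only the 2 groups fitted (0.0534), by edgeR in each case. DESeq2 and limma voom called it too. In Snail cKO against WT UUO 0 members were called by edgeR, where 0.299% of all genes were in either direction, 4 had an unadjusted p under 0.05, and DESeq2 and limma voom called 0. Mrpl12 stood at 0.48 (SE 0.22, adjusted p = 0.315) there.

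In Myc cKO against WT UUO kidneys 6 members were called higher, where 5.31% of all genes were, and 0 lower, where 6.91% were. They were Mrpl12 (log2 0.997, SE 0.22, adjusted p = 0.0104), Mrpl50 (0.58, SE 0.15, 0.0226), Mrps10 (0.41, SE 0.11, 0.028), Mrps9 (0.42, SE 0.12, 0.0347), Mrpl46 (0.49, SE 0.15, 0.0425) and Mrps35 (0.30, SE 0.09, 0.0436). Mrpl50 was at 39.1, 38.1 and 47.9 CPM in Myc cKO against 22.9, 31.2 and 29.4 in WT UUO. Mrps10 and Mrps9, small-subunit proteins with bacterial counterparts, were at 14.8, 12.8 and 15.8 against 10.1, 10.7 and 11.9 and at 21.1, 20.8 and 27.5 against 15.9, 17.6 and 18.6. Mrpl46 was at 12.3, 12.2 and 15.8 against 9.55, 8.51 and 10.7, and Mrps35 at 18.8, 21.0 and 22.2 against 15.9, 18.1 and 16.4. In all 6 the Myc cKO libraries lay above the WT UUO ones. Among the 3 Myc cKO libraries replicate 3 was the highest for each of the 6. Among the 3 WT UUO libraries replicate 1 was the lowest for each but Mrpl46.

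These 6 calls rest on few libraries. None of the 6 was called without Myc cKO replicate 3, without WT UUO replicate 1, without both, or with only the 2 groups fitted. Mrpl12 was then higher by 0.84, 0.86, 0.69 and 1.01 (adjusted p = 0.0511, 0.053, 0.169 and 0.0939), so that its size changed little in the last of these. On unscaled library totals 4 members were called. Mrpl12 was called higher (0.73, adjusted p = 0.0183) and Mrpl14 (-0.56), Mrpl17 (-0.45) and Mrpl38 (-0.33) lower, while Mrpl50 (0.31, adjusted p = 0.0789), Mrpl46 (0.21, 0.209), Mrps10 (0.15, 0.546), Mrps9 (0.14, 0.332) and Mrps35 (0.03, 0.86) were not called. By Ddx3y and Xist counts 2 of the 3 Myc cKO libraries and 1 of the 3 WT UUO libraries were male. With sex as a covariate 5 of the 6 were called, and Mrpl46 was not (0.45, adjusted p = 0.0609). With Cre presence as a covariate edgeR called 3 (Mrpl12, Mrpl50 and Mrps10), though this fit learns of Cre only from the contralateral and WT UUO groups. DESeq2 called 12 and limma voom 5. In the same comparison, 43 of 83 nuclear OXPHOS genes were called higher and 1 lower (median 0.57), 9 of 13 mitochondrially encoded mRNAs were called higher (median 1.52), and so were mt-Rnr1 (1.21, adjusted p = 0.00381), mt-Rnr2 (0.91, adjusted p = 0.0266) and Ppargc1a (1.17, adjusted p = 0.0128). Tfam (0.24), Polrmt (-0.07) and Tufm (-0.06) were not called, and Tfam stood at -0.03 on library totals. Of the proximal tubule markers 10 of 15 were called higher (median 1.65), with the sums given above, while 4 of 9 fibroblast and myofibroblast markers (-1.31) and 3 of 7 macrophage markers (-0.73) were called lower. Myc cKO replicate 3 had the lowest summed fibroblast level of the obstructed libraries (851 CPM). WT UUO replicate 1 had the highest (7625 CPM), with the lowest proximal tubule sum (1028 CPM) and the highest urothelial sum (397 CPM). The part of these markers and of sex in the 6 calls was not tested beyond the fits given. Line and background also differed between these groups and cannot be told apart from Myc loss.

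**Figure D4:**
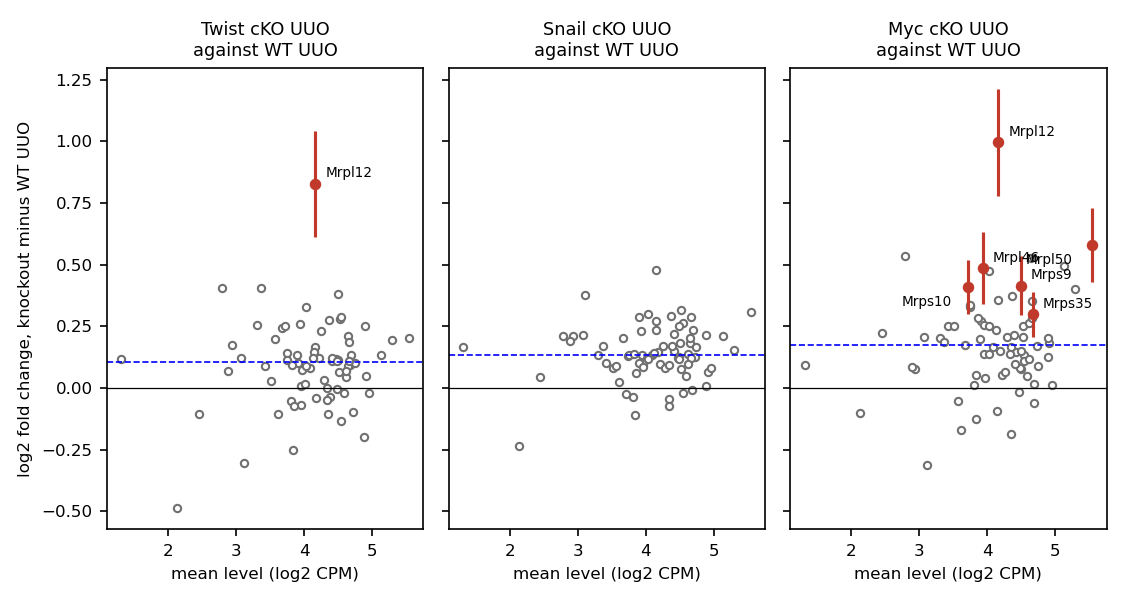
Log2 fold change of the 74 genes in each knockout against WT UUO, plotted against their mean level in log2 CPM; red points with standard error bars passed an adjusted p of 0.05, and the dashed line is the median. Medians are 0.11, 0.14 and 0.17 on the TMM scale (-0.052, 0.034 and -0.090 on unscaled library totals), with 1, 0 and 6 genes called.

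Between knockouts, few members differed. In Myc cKO against Twist cKO, 1 member was called higher, Mrpl33 (log2 0.32, SE 0.08, adjusted p = 0.0378), where 0.442% of all genes were, with 38.0, 35.8 and 32.1 CPM against 27.5, 27.9 and 29.0 and no overlap. The call held in 1 of 6 fits without a library. In Myc cKO against Snail cKO edgeR called 0 members, where 2.45% of all genes were called, 5 had an unadjusted p under 0.05, and DESeq2 called Mrps10 and Mrpl14 while limma voom called 0. In Twist cKO against Snail cKO edgeR, DESeq2 and limma voom called 0 members, where edgeR called 0.171% of all genes, and 3 had an unadjusted p under 0.05.

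Mrpl14, a large-subunit protein with a bacterial counterpart (chr17:45686322-45698495, + strand, 4 exon blocks), was highest among obstructed kidneys in Snail cKO. Unobstructed kidneys held 12.8, 15.6 and 8.87 CPM (healthy) and 11.1, 14.0 and 10.9 (contralateral), and WT UUO kidneys 7.66, 6.85 and 6.51. The Twist cKO libraries held 5.41, 7.34 and 4.25, the Snail cKO libraries 9.20, 9.20 and 8.88 and the Myc cKO libraries 5.604, 6.30 and 5.04. The Snail cKO libraries lay above all other obstructed ones and overlapped only the healthy ones. They were also the only libraries of the Snail line, so the deletion and the line cannot be told apart. Mrpl14 was lower in Myc cKO than in Snail cKO by 0.69 (log2 -0.69, SE 0.20, edgeR adjusted p = 0.0889), which did not pass the threshold. Neither edgeR, DESeq2 nor limma voom called Mrpl14 between Snail cKO and WT UUO or between Snail cKO and Twist cKO. An exon of Tmem63b overlaps Mrpl14 on the other strand.

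**Figure D5:**
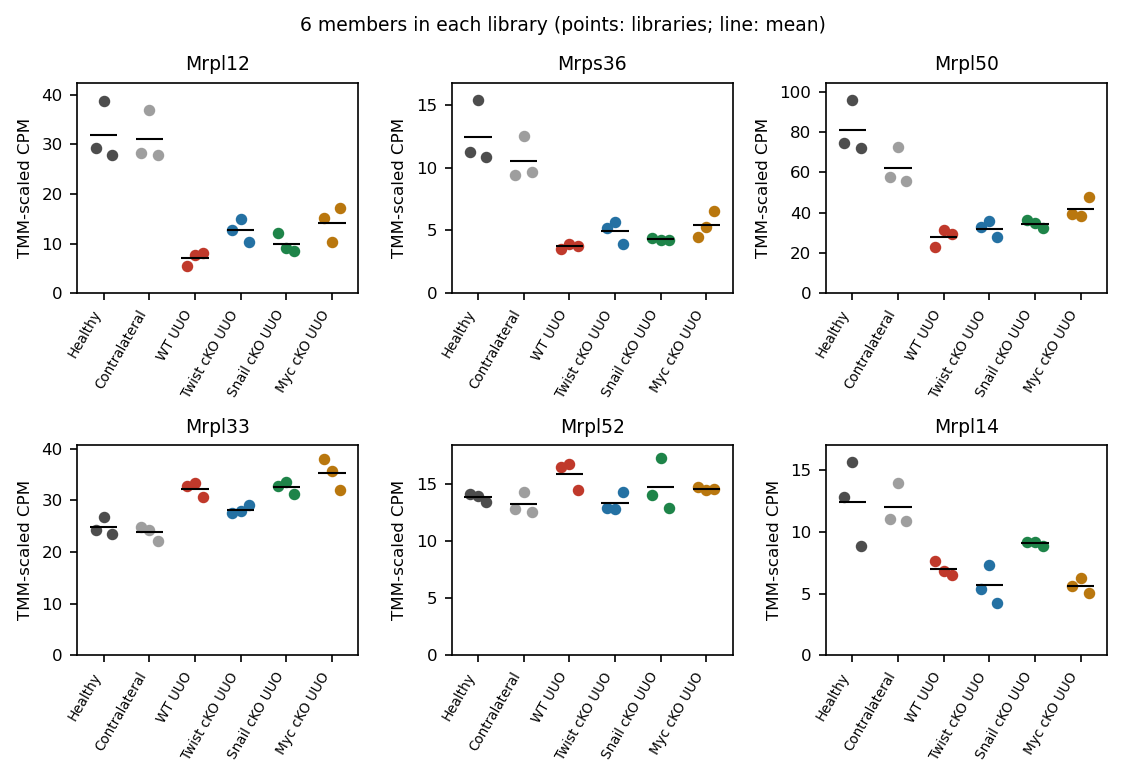
TMM-scaled CPM of 6 members in each library (points) with group means (lines), with axes starting at 0. Mrpl12, Mrps36 and Mrpl50 are lower in every obstructed library than in every unobstructed one, Mrpl33 is higher, and Mrpl14 is highest among obstructed kidneys in Snail cKO (on unscaled library totals Mrpl12, Mrps36 and Mrpl50 were still called lower against healthy and Mrpl33 higher).

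Many members start close to a neighbour on the other strand. Of the 74 genes 32 (43.2%) have a protein-coding gene on the other strand starting within 1000 bases of their own start, against 10.7% of 21849 other protein-coding genes and 13.8% of those tested. Mrpl46 and Mrps11 are such neighbours of each other, and their exons overlap. Only the distance between starts was measured, and not whether a promoter is shared. Among the 32 members, 30 were called lower in WT UUO against healthy kidneys on the TMM scale (median -0.84). Of the 31 neighbours tested, 15 were called lower, where 27.1% of all genes were, 4 higher, where 29.2% were, and 12 were not called (median -0.39). The 15 include Mrpl46 and Mrps11, which are members of the family themselves, so this share is not that of outside neighbours alone. For 14 members both the member and its neighbour were called lower, with the pair of Mrpl46 and Mrps11 counted from each side. For 4 the member was called lower and its neighbour higher. Pairs with like changes included Mrpl2 (-0.93) with Klc4 (-0.999), Mrps27 (-0.92) with Ptcd2 (-0.94) and Mrpl37 (-0.56) with Cyb5rl (-0.55), and the helicase gene Peo1 (-1.10) starts beside Mrpl43 (-0.75). Other pairs differed. Starts 100 bases apart joined Mrpl51 (log2 -1.27, SE 0.14) to Ncapd2, a condensin gene of dividing cells (1.83, SE 0.18). Starts 197 bases apart joined Mrpl27 (-1.12, SE 0.14) to the DNA repair nuclease gene Eme1 (2.33, SE 0.33). Starts 29 bases apart joined Mrpl36 (-0.34, SE 0.16) to Ndufs6 of respiratory complex I (-1.83, SE 0.17). Pairs thus ranged from like changes to opposite ones in the same libraries.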

How the data were processed

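Whole-kidney RNA of 18 mouse kidneys in 6 groups of 3 was sequenced as stranded libraries with 2 reads of 75 bases, per the labels. The deposited table holds raw counts per gene, made by the authors with bcl2fastq 1.8.4 and HTSeq on build mm10, per the submitters' processing notes, which also name DESeq2; which aligner, annotation and strand setting were used is not given in the sources used here. Of 24 columns, 18 matched a sample and 6 matched none and were not used. The deposited normalized table was not used.

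The counts entered edgeR 4.0.16 under R 4.3.3 (TMM scaling, filterByExpr, 21050 genes, robust quasi-likelihood fit over all 18 libraries with 12 residual degrees of freedom, Benjamini-Hochberg adjustment over all genes, two-sided threshold of 0.05), and steps were tested on simulated data. The simulated libraries shared a common profile with few changed genes and no shift in mitochondrial RNA, so they did not check the scaling. Log2 fold changes carry the standard error (SE) of that fit. Unless another tool is named, adjusted p-values come from it. Alternatives used DESeq2 1.42.0, limma 3.58.1 (voom), other scalings, filters, covariates (Cre presence, sex read from Ddx3y and Xist) and sample sets. Positions and exons came from GENCODE M21 (mm10) and promoter sequences from RefSeq (GRCm38.p6). Totals of 52.6 to 91.3 M counts per library left at least 106 raw counts (Mrpl23) for each of the 74 genes in every library, and as few as 0 for the pseudogene symbols.

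The members, gene lists and tests were chosen with earlier results of these data known. Replicates are numbered in the order of the sample records. Values by library, for all or some of the groups, are given for the 5 largest rises and falls among called members without overlap, members called against the median, the 5 highest and 5 lowest per length, and members with a fixed role. Mrpl28 is given by its log2 changes only. For other gene lists the 2 members with the smallest p are named, with mt-Rnr1, mt-Rnr2, Tfam, Polrmt, Tufm, Ppargc1a and Myc. Mrpl1, Mrpl38, the pairs with close starts on opposite strands and other regulators were named after their values were seen.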

Additional observations from a re-analysis of the deposited data

Results flagged for a closer look

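Mrpl33 differed between knockouts: its change in Myc cKO UUO against Twist cKO UUO kidneys was 0.32 on the log2 scale (edgeR adjusted p = 0.0378). The pseudogene symbol Mrpl48-ps differed between Myc cKO UUO and Snail cKO UUO kidneys, with a fitted log2 difference of 4.88 (edgeR adjusted p = 0.0491). Its levels were 0.499, 0.761 and 2.54 CPM in Myc cKO, 0.0479, 0.0268 and 0.0476 in Snail cKO and 0.447, 3.42 and 0.574 in healthy kidneys, so that the fitted size rests on low counts.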

How the results depend on the processing

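The sign of the family's change depended on the scaling, and mitochondrial RNA took a larger share of unobstructed libraries. On unscaled library totals the median of all genes in WT UUO against healthy kidneys moved to 1.12, and the median member reversed to 0.24 there, 0.29 in WT UUO against contralateral, -0.052 and -0.090 in Twist and Myc cKO against WT UUO, 0.19, 0.34 and 0.22 in Twist, Snail and Myc cKO against contralateral and -0.12 in Myc against Snail cKO, while it was 0.034 in Snail cKO against WT UUO. Members called there numbered 39, 42, 34, 31, 0, 0 and 2 in WT UUO against healthy, WT UUO, Twist cKO and Myc cKO against contralateral, Twist cKO against WT UUO, Myc against Twist cKO and Myc against Snail cKO. In WT UUO against healthy, Mrps12 reversed to 0.33, Mrps30 to 0.50, Mrps18a to 0.23, Mrps18b to 0.82, Mrps18c to 0.37, Mrps22 to 0.15 and Mrpl44 to 0.26. On library totals without mitochondrially encoded genes, chosen after seeing the data, Mrps18b was at 0.10 and the medians were -0.49 (WT UUO against healthy), -0.41 (against contralateral), -0.36, -0.25 and -0.24 (Twist, Snail and Myc cKO against contralateral), with 44, 40 and 36 members called in the last 3, 1 in contralateral against healthy, 11 in Myc cKO against WT UUO and 0 in Myc against Twist cKO. With upper quartile scaling the medians against contralateral were -0.61 (WT UUO), -0.56, -0.48 and -0.40 (Twist, Snail and Myc cKO), and 3 members were called in contralateral against healthy, 14 in Myc cKO against WT UUO and 1 in Myc against Snail cKO.

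DESeq2 called 2 members in contralateral against healthy, 12 in Myc cKO against WT UUO and 2 in Myc against Snail cKO. With sex as a covariate 2 were called in contralateral against healthy and 1 in Myc against Snail cKO, and with Cre presence 0 in Twist and 3 in Myc cKO against WT UUO. With only the compared groups fitted, 0 were called in Twist cKO against WT UUO, Myc cKO against WT UUO and Myc against Twist cKO. Without WT UUO replicate 1 and Myc cKO replicate 3 together, 0 were called in Twist and in Myc cKO against WT UUO. Without a filter 0 were called in Myc against Twist cKO, and without mitochondrially encoded genes under TMM 1 in Myc against Snail cKO. The cause of these shifts was not tested.

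Leaving out each library in turn gave 69 to 71 members called and medians of -1.01 to -0.77 in WT UUO against healthy, 0 to 3 and -0.24 to -0.03 in contralateral against healthy, and 65 to 70 and -0.80 to -0.69 in WT UUO against contralateral. Against WT UUO the ranges were 0 to 1 and 0.06 to 0.18 in Twist cKO, 0 to 0 and 0.13 to 0.15 in Snail cKO and 0 to 9 and 0.08 to 0.22 in Myc cKO. Against contralateral they were 60 to 69 and -0.74 to -0.61 in Twist cKO, 57 to 66 and -0.66 to -0.57 in Snail cKO and 50 to 63 and -0.66 to -0.48 in Myc cKO. Between knockouts they were 0 to 1 and 0.03 to 0.16 (Myc against Twist), 0 to 0 and -0.02 to 0.09 (Myc against Snail) and 0 to 0 and -0.09 to 0.02 (Twist against Snail). No paired analysis was possible because the labels give the samples no shared replicate numbers. Depth limits the pseudogene symbols most, and among the genes Mrps34 and Mrpl23, which had the lowest raw counts. Exons of other genes overlap Mrps34 on both strands, so its low counts need not reflect depth or level alone.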
